A study of Mus musculus with 2 samples.

Results

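Elastic fibre and microfibril genes encode the extensible fibres of connective tissue and the thin scaffolds on which they are built. Their members were listed by name: elastin (Eln), 2 fibrillins (Fbn1, Fbn2), 3 microfibril-associated glycoproteins (Mfap2, Mfap4, Mfap5), 3 fibulins (Fbln1, Fbln2, Fbln5) and Emilin1. All 10 were found by symbol among the 13138 genes of the expression table, and all 10 lay above the minimum level set for comparison (a mean of 50 normalized counts, 5.64 on the log2 scale), which 12809 genes passed. The study grew primary chondrocytes of C57Bl/6 mice ex vivo as micromass cultures, in which a dense drop of cells lays down cartilage-like matrix. The library labelled Cre came from cells given a Cre-recombinase adenovirus and carries the genotype hdac3-knockout. The library labelled GFP came from cells given an adenovirus with green fluorescent protein and carries the genotype wild-type. Both received a virus, neither the age of the animals, the time in culture nor the cartilage of origin is given in the labels, and whether cells of several animals were pooled is not given either.

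Because the design has 1 library per group, replicate spread is unknown, no p-value is given, and every comparison is between these libraries and not between the conditions. "Cre" and "GFP" below stand for the library labelled so. Values are the authors' log2 normalized gene counts without read totals, so depth is unknown. Differences are Cre minus GFP on the log2 scale. Hdac3, the labelled target, stood at 10.68 in Cre and 10.69 in GFP. Its gene total therefore shows no loss of message, and because it sums the whole gene it cannot show whether part of the gene was removed. All 8 chondrocyte markers were present, from Matn3 at 11.83 and 12.72 to Col2a1 at 19.97 and 20.35 in Cre and GFP. All 10 fibroblast and perichondrial markers and all 6 macrophage markers were measured too. Presence alone therefore does not show how far the cultures consisted of chondrocytes. Over all genes compared, 9 were at least 2-fold lower and 94 at least 2-fold higher in the library labelled Cre.

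An elastic fibre has a core of crosslinked elastin, which stretches and recoils, and a mantle of microfibrils, which are strings of fibrillin. Cells secrete tropoelastin, fibulins carry it with lysyl oxidases to the microfibrils, and crosslinking then makes it insoluble. Microfibrils also occur without elastin, as they do around chondrocytes, and they hold latent TGF-beta in the matrix. Fibrillin-1 is the protein altered in Marfan syndrome, in which bones overgrow, whereas elastin itself is abundant in the elastic cartilage of the ear and epiglottis and scarce in hyaline cartilage.

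Members of this gene set did not share one direction. Promoter sequences were therefore set side by side for Fbln1 and Emilin1, the members with the highest differences, and for Fbln5, the fibulin with the lowest. RefSeq promoter windows (GRCm38.p6, from 250 bases before to 50 bases after a transcript start) matched 6 of the 10 members. Eln, Fbn2, Mfap4 and Mfap5 had no entry. Each window is 300 bases, printed 5′ to 3′ on the strand of the gene. Capitals mark a GC box (GGGCGG, or CCGCCC where it lies on the other strand) or an E-box (CACGTG).
Fbln1, chr15:85205758-85206057, plus strand: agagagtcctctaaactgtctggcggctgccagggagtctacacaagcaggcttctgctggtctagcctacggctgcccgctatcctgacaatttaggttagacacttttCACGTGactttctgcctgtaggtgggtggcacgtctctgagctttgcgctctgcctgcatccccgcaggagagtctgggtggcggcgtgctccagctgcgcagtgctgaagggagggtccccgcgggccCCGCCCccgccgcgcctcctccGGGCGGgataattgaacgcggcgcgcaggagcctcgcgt
Emilin1, chr5:30913536-30913835, plus strand: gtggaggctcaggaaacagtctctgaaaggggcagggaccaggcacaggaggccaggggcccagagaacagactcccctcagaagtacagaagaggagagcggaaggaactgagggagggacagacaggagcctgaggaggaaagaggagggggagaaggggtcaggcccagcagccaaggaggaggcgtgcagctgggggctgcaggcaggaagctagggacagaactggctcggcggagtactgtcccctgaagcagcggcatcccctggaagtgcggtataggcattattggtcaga
Fbln5, chr12:101819070-101819369, minus strand: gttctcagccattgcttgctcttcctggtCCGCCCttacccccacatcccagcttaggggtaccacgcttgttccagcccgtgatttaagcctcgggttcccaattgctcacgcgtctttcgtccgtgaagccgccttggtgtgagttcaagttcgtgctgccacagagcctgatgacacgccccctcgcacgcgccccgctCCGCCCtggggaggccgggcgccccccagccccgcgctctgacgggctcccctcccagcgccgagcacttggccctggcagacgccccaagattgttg
The Fbln1 window held 2 GC boxes, 1 E-box and 24 CpG dinucleotides, and the Fbln5 window held 2 GC boxes, 0 E-boxes and 24 CpG. Emilin1 had 0 GC boxes, 0 E-boxes and 6 CpG, against a median of 7 CpG over all 32851 windows of this length. A GC box on either strand was found in 35.7% of those windows and an E-box in 7.15%. The windows printed for both fibulins had equal counts of CpG and of GC boxes. Between the libraries Fbln1 differed by 0.31 and Fbln5 by -0.38, and a link between these counts and the differences was not tested. Fbln1 and Fbln5 each have another window in the table, with 12 and 8 CpG and 0 GC boxes in either. GC boxes were also present in windows of Fbn1 (1), Fbln2 (2) and Mfap2 (2 in one window and 0 in the other). Neither a TATA box (TATAAA, in 13.6% of all windows) nor an AP-1 site (TGANTCA, in 7.81%) occurred in any of the 9 windows of these 6 genes, both strands searched. These motifs do not overlap one another in the windows printed, and matches are letters only and not measured binding sites.

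Of the 10 members, 7 were below 0 and 3 above it, with a median difference of -0.31 and a range from -1.005 to 0.31. At a minimum 10 times higher, which drops Mfap2 and Mfap5, the median was -0.20. Over all 12809 genes the median was -0.00041 and 50.1% lay below 0. Mfap4 alone reached 2-fold, on the lower side, where 0.0703% of all genes did, and 0 members did on the higher side, where 0.734% did. At 1.5-fold, Mfap4 and Eln were lower, where 0.952% of all genes were, and 0 members were higher, where 2.25% of all genes were. Genes within the range of levels of the members gave nearly the same background, 0.0869% at 2-fold and 0.984% at 1.5-fold on the lower side. Eln and Mfap4 stood apart from the other 8 members, which lay between -0.39 and 0.31.

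**Figure D1:**
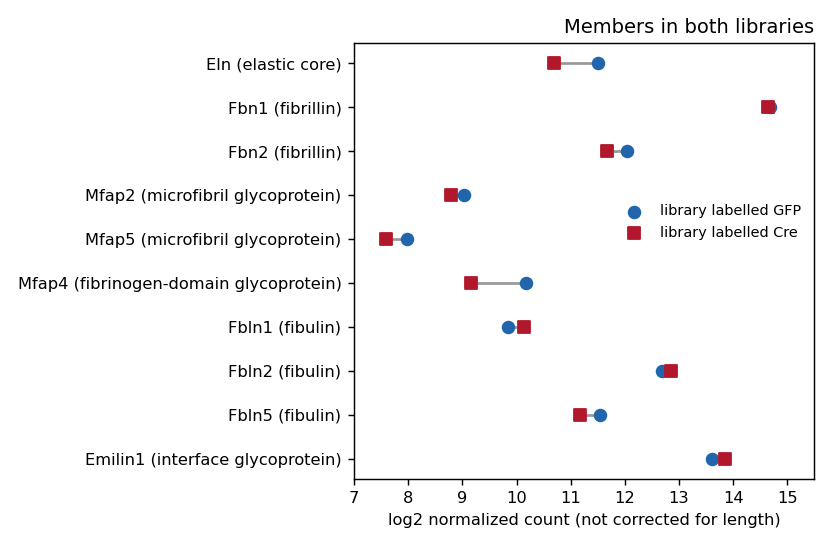
Log2 normalized count (x axis) of each member in the library labelled GFP (blue circles) and the library labelled Cre (red squares), 1 library per group, with a line joining both values of a gene. The lines of Mfap4 (9.16 against 10.17) and Eln (10.69 against 11.51) are the longest, and only Fbln1, Fbln2 and Emilin1 have the red square on the right.

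Message for elastin, the protein of the fibre core, was lower in the library labelled Cre. Eln (ENSMUSG00000029675.12; GRCm38 chromosome 5, 134702593 to 134747323, minus strand) had a log2 normalized count of 10.69 in Cre and 11.51 in GFP. The difference of -0.82 is 1.76-fold higher in GFP, and 0.304% of all genes compared had a lower difference. In linear terms, about 1650 normalized counts stood against 2908. The level was moderate in both libraries, so elastin message was not absent from these cultures.

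The genes of the fibrillins, which polymerise into the microfibril backbone, differed from each other. Fbn1 (chromosome 2, 125300594 to 125507993, minus strand), the main fibrillin of postnatal tissue, was level, at 14.64 in Cre and 14.67 in GFP, a difference of -0.03. Fbn2 (chromosome 18, 58008623 to 58210487, minus strand), which is used most in developing tissue, stood at 11.66 in Cre and 12.04 in GFP. Its difference of -0.38 is 1.30-fold higher in GFP, short of either threshold. Per kilobase of exon, Fbn2 made up 10.4% of the summed fibrillin level in Cre and 12.9% in GFP, so Fbn1 message predominated in both.

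Genes of the small glycoproteins that decorate microfibrils were all lower in the library labelled Cre, by differing amounts. Mfap2 and Mfap5 encode the related proteins MAGP-1 and MAGP-2, which bind fibrillin. Mfap2 (chromosome 4, 141010418 to 141015984, plus strand) had 8.79 in Cre and 9.04 in GFP, a difference of -0.25. Mfap5 (chromosome 6, 122505845 to 122529290, plus strand) had 7.59 in Cre and 7.98 in GFP, a difference of -0.39 or 1.31-fold. It was the least abundant member, at about 192 and 252 normalized counts. If the deposited values come from a shrinking log transform, as their narrow spread at low levels would fit, differences of the least abundant genes are understated. Differences at higher levels can be understated too, as can the folds and the counts past a threshold that rest on them. The SD of the difference over genes was 0.15 at mean log2 values from 5.64 to 7 and 0.50 from 13 to 15. It was 0.23 from 7 to 9, where Mfap5 lies, 0.23 from 9 to 11 and 0.25 from 11 to 13, so the spread in the range of Mfap5 was close to that of the next higher levels. This cannot tell whether the difference of Mfap5 is understated, because the spread before any transform is not known.

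Mfap4 had the largest difference of the set. It encodes a secreted protein with a fibrinogen-related domain that binds elastin and fibrillin and supports elastic fibre assembly. Mfap4 (ENSMUSG00000042436.12, chromosome 11, 61485431 to 61488900, plus strand) stood at 9.16 in Cre and 10.17 in GFP, or about 573 against 1151 normalized counts. The difference of -1.005, 2.01-fold higher in GFP, ranked 9 from the lowest among 12809 genes, and it lies on the threshold: scaled to equal totals it was -0.997, just short of 2-fold. Exons of Mfap4 overlap those of Mapk7 on the opposite strand, and how the counting treated strand is not given in the sources used here. Mapk7 itself was level, at 9.53 in Cre and 9.52 in GFP.

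Genes of the fibulins, which link elastin to microfibrils and to basement membranes, went both ways. Fbln5 (chromosome 12, 101746565 to 101819055, minus strand) encodes the fibulin that tethers tropoelastin and the crosslinking enzyme Loxl1 and is needed for elastic fibres to form. It had 11.16 in Cre and 11.54 in GFP, a difference of -0.38 or 1.30-fold higher in GFP. Fbln1 (chromosome 15, 85205949 to 85286535, plus strand), found in the elastin core and in basement membranes, had 10.14 in Cre and 9.84 in GFP. Its difference of 0.31 (1.24-fold higher in Cre) was the highest among the members, and 6.39% of all genes lay above it. Fbln2 (chromosome 6, 91212455 to 91272540, plus strand), found where microfibrils meet elastin, had 12.86 in Cre and 12.68 in GFP, a difference of 0.18. The 3 fibulins therefore spanned from -0.38 to 0.31, with 0 of them past 1.5-fold.

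Emilin1, whose product lies at the boundary of elastin and microfibrils and restrains TGF-beta processing, was slightly higher in the library labelled Cre. Emilin1 (chromosome 5, 30913402 to 30921277, plus strand) had 13.85 in Cre and 13.60 in GFP, a difference of 0.25 or 1.19-fold. Of all genes compared, 8.20% were higher than this. Fbn1 and Emilin1 lie in the range of mean log2 values from 13 to 15, where the spread over genes was wider and 8.13% of 443 genes were past 1.5-fold in either direction.

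**Figure D2:**
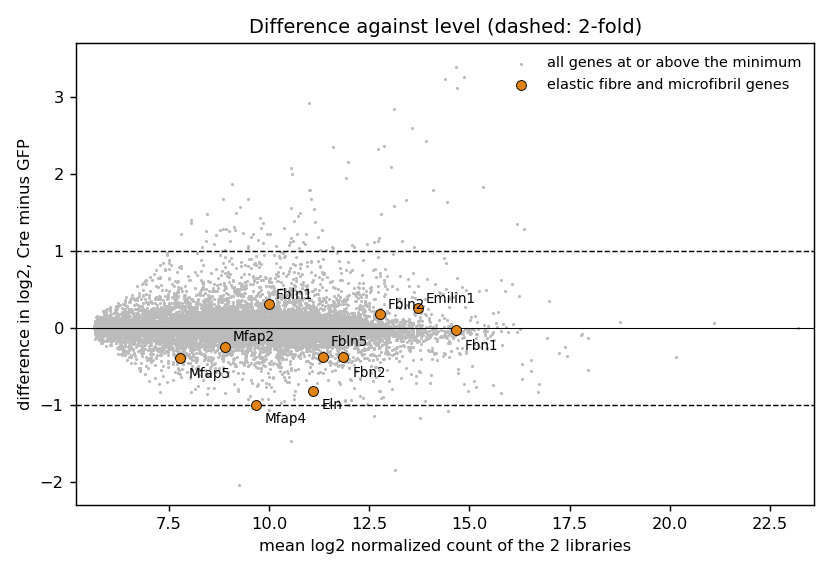
Difference in log2 value, Cre minus GFP (y axis), against the mean log2 normalized count of the 2 libraries (x axis) for 12809 genes (grey) and the 10 members (orange), with dashed lines at 2-fold. Mfap4 sits on the lower line and Eln above it at -0.82, and the other members lie between -0.39 and 0.31.

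Levels of different genes can be set side by side only per length, here as linear normalized counts per kilobase of the union of annotated exons. Emilin1 was the most abundant member on this scale, with 3000 in Cre and 2515 in GFP, followed by Fbn1 with 2107 and 2156 and Fbln2 with 1166 and 1031. These 3 genes kept places 1 to 3 in both libraries and together held 78.1% of the summed level of the set in Cre and 70.2% in GFP. Mfap5 was last in both, at 53.5 in Cre and 70.3 in GFP. The 6 genes between lay close together, from 204 to 366 in Cre and from 209 to 599 in GFP.

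The middle order was not the same in the libraries. In GFP it ran Mfap4 (599), Mfap2 (434), Fbln5 (432), Eln (359), Fbn2 (319) and Fbln1 (209). In Cre it ran Mfap2 (366), Fbln5 (332), Mfap4 (298), Fbln1 (259), Fbn2 (245) and Eln (204). By the exon union, Mfap4 thus moved from place 4 to place 6, Eln from place 7 to place 9 and Fbln1 from place 9 to place 7. Neighbouring levels in the middle differed by 1.01 to 1.52 times in GFP and by 1.05 to 1.20 times in Cre, and with 1 library each it cannot be said which of these neighbours differ beyond replicate spread.

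Annotated length mattered most for Eln. Its exon union is 8098 bases and its longest transcript, of 37 exons, is 3853 bases. By the longest transcript, Eln had 428 per kilobase in Cre and 755 in GFP, which puts it at place 4 in both libraries. On that length Mfap4 was at place 5 in GFP and 7 in Cre, and Fbln1 at place 9 in GFP and 8 in Cre. The ratio of Fbn1 to Eln was 10.3 in Cre and 6.00 in GFP by the exon union, and 4.99 and 2.89 by the longest transcript. Under either length the ratio was larger in Cre. Summed over the 10 members, the level per kilobase was 8030 in Cre and 8124 in GFP, a near balance in which the higher values of Emilin1 and Fbln2 offset the lower ones.

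**Figure D3:**
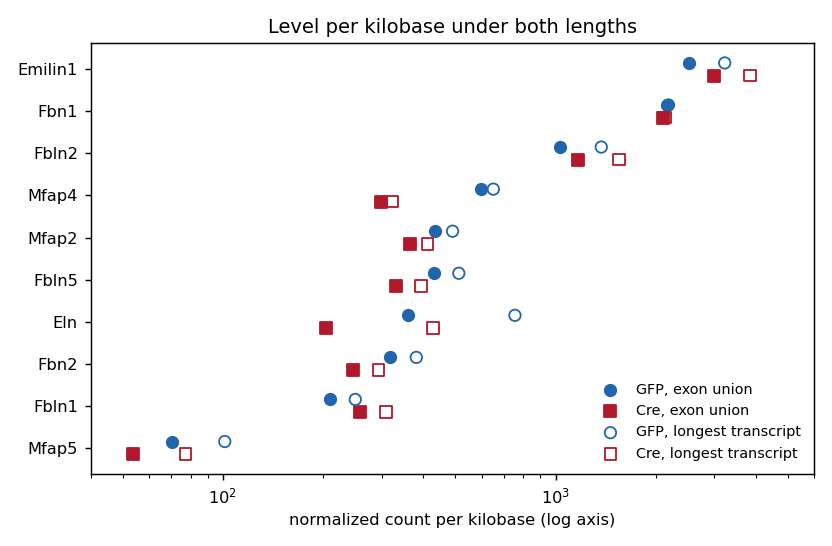
Normalized count per kilobase (x axis, log scale) of each member in GFP (blue circles) and Cre (red squares), by the union of exons (filled) and by the longest transcript (open). Emilin1, Fbn1 and Fbln2 lie at the top and Mfap5 at the bottom in both libraries, and Eln is the member that depends most on the length used, at 204 or 428 in Cre.

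Other genes of elastic fibre assembly, crosslinking and turnover were counted in 9 lists of 61 genes, of which 52 were compared. At 2-fold, 1 gene was higher and 0 were lower. At 1.5-fold, 3 genes (5.77%) were higher and 1 (1.92%) was lower, beside 2.25% and 0.952% of all genes. The median over these 52 genes was 0.05, and 31 lay above 0 and 21 below, where 50.1% of all genes were. The lower values of Eln and Mfap4 were thus not shared by most of these 52 genes, though the lists differed. Elastin-degrading proteases lay above 0 in 7 of 7 genes, and ADAMTS and ADAMTS-like genes below 0 in 7 of 7.

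Genes of the lysyl oxidases, which crosslink elastin and collagen, were level or slightly higher in Cre. Lox stood at 15.49 in Cre and 15.01 in GFP, a difference of 0.48, while Loxl1, the partner of Fbln5, differed by 0.01 and Loxl4 by -0.04. The median of the 5 crosslinking genes was 0.01. Among 4 further fibulins and hemicentins, Efemp1 (fibulin-3) had 10.58 in Cre and 11.25 in GFP, a difference of -0.67. Efemp2 (fibulin-4), which like Fbln5 is required for elastic fibres, differed by 0.22. Their median was -0.33, and 3 of the 4 lay below 0. Both Efemp2 and Fbln5 serve elastin assembly, and they lay on opposite sides of 0.

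Latent TGF-beta binding proteins resemble fibrillins in structure and sit on microfibrils. In the list of these proteins and their ligands, 4 of 7 genes lay below 0, with a median of -0.21. Ltbp2, which binds fibrillin-1 and fibulin-5 and does not carry latent TGF-beta, was the one past 1.5-fold, at 13.17 in Cre and 12.25 in GFP, 1.89-fold higher in Cre. The ligand gene Tgfb3 was lowest, at -0.58. In the list of ADAMTS and ADAMTS-like proteins, several of which bind microfibrils, all 7 measured genes lay below 0, from -0.01 for Adamts10 to -0.44 for Thsd4. Their median was -0.19, and 0 of the 7 reached 1.5-fold. In the EMILIN family 2 of 4 other listed genes were measured, and both were above 0, like Emilin1. Emilin2 was at 0.38. Mmrn2 was at 0.12, with a mean log2 value of 6.14, near the minimum, where the SD of the difference over genes was 0.15.

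Proteases able to degrade elastin were above 0 in 7 of 7 measured genes, with a median of 0.37. The gelatinase gene Mmp9 was at 11.32 in Cre and 10.10 in GFP, 2.33-fold higher in Cre and the only gene of the 9 lists past 2-fold. The macrophage elastase gene Mmp12 differed by 0.37, and Ctss, a cathepsin with elastase activity, was lowest at 0.01. The list was chosen with earlier results of these data known, so its direction is not independent evidence. Macrophages make several of these proteases, Mmp12 among them. The summed level of 6 macrophage markers was 1.38 times as high in Cre, but 4 of them lay above 0 and 2 below. Emr1 was at 1.08, Cd14 at 1.04 and Itgam at 0.58, while Csf1r was at 0.08, Cd68 at -0.05 and Mrc1 at -0.73. The part of macrophages in the protease values was not tested. Matrix partners of microfibrils lay above 0 in 5 of 5 genes, with a median of 0.08. The large proteoglycan gene Vcan, whose product binds fibrillin, was 1.55-fold higher in Cre (13.79 against 13.16), and Bgn was lowest at 0.04. Receptors, including the elastin receptor complex, had a median of 0.07 over 10 genes, from Itgb5 at -0.21 to Lgals3 at 0.29. Secretion and processing genes had a median of 0.00038 over 5 genes, from the tropoelastin-binding chaperone gene Fkbp10 at -0.28 to the profibrillin convertase gene Furin at 0.09.

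**Figure D4:**
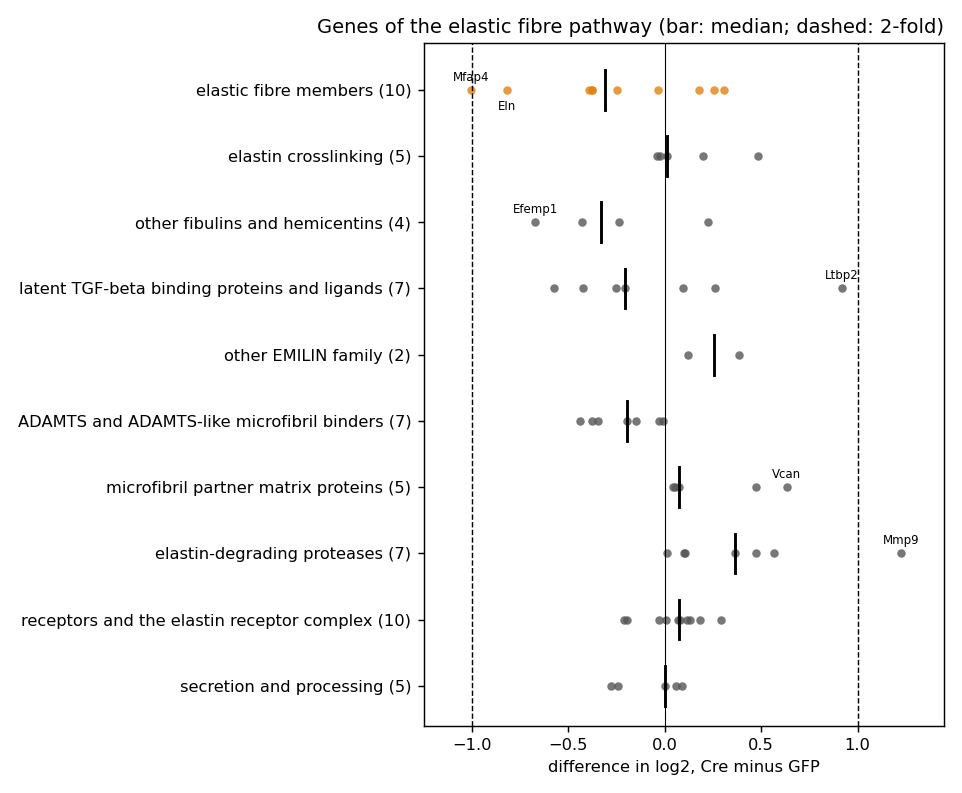
Difference in log2 value, Cre minus GFP (x axis), of the 10 members (orange) and of 52 genes in 9 lists (grey), with the number of genes in brackets, a black bar at each median and dashed lines at 2-fold. Genes past 1.5-fold are named: Mfap4, Eln and Efemp1 on the left and Ltbp2, Vcan and Mmp9 on the right.

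Several cell types of skeletal tissue make these proteins, so marker genes were measured beside them. In bulk samples, fewer cells of a type and less RNA per cell cannot be told apart. Smooth muscle cells express Eln and Mfap4. In the list of smooth muscle and pericyte markers, 4 of 7 measured markers lay below 0, and the summed linear level was 19395 in Cre and 26149 in GFP. Acta2 was lowest (11.71 in Cre, 12.39 in GFP, a difference of -0.68) and Rgs5 highest (0.33). The defining contractile genes Myh11 and Cnn1 had no row and were not analysed here. Chondrocyte markers were below 0 in 8 of 8 genes, with a median of -0.60 and a summed level of 1497960 in Cre against 2057880 in GFP. Those past 1.5-fold were Matn3 (-0.89), Acan (-0.83), Hapln1 (-0.77) and Matn1 (-0.66), and the highest was Col2a1 (-0.38).

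Fibroblast and perichondrial markers, of cells that make fibrillins and fibulins, were balanced. Of 10 genes 6 lay below 0, the median was -0.07, and the summed level was 499575 in Cre and 495856 in GFP. They ranged from Col14a1 at -0.43 to Dcn at 0.47. Tendon markers lay below 0 in 4 of 4 genes, all by little, from -0.31 for Tnmd to -0.0019 for Scx, with sums of 1495 and 1714. Endothelial markers had a median of 0.05 over 5 genes, from Kdr at -0.13 to Pecam1 at 0.23, and sums of 639 and 612. Macrophage markers lay above 0 in 4 of 6 genes, with sums of 16525 in Cre and 11997 in GFP, Emr1 highest at 1.08 and Mrc1 lowest at -0.73. The lower levels of Eln and Mfap4 thus went along with lower sums of chondrocyte, tendon, and smooth muscle and pericyte markers. In the last of these lists 3 of 7 markers lay above 0. Linear sums are weighted to the most abundant genes. These were Col2a1 for chondrocytes (19.97 in Cre, 20.35 in GFP) and Tnmd for tendon (9.43, 9.74). For smooth muscle and pericytes they were Cspg4 (12.96 in Cre, 13.36 in GFP) and Pdgfrb (12.40, 12.75). The part of cell composition in these differences was not tested.

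**Figure D5:**
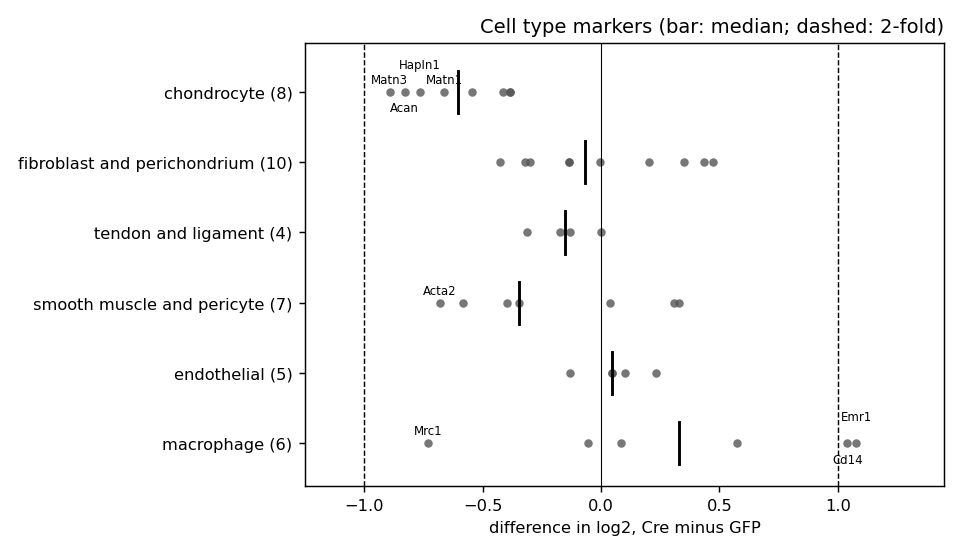
Difference in log2 value, Cre minus GFP (x axis), of marker genes of 6 cell types, with the number measured in brackets, a black bar at each median and dashed lines at 2-fold. Chondrocyte markers lie between -0.89 and -0.38, and smooth muscle and pericyte markers between -0.68 and 0.33.

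Genes nearest to Mfap4 and Eln in both log2 values were looked up as a description, with the straight-line distance over the 2 libraries as the measure. The search covered only genes at or above the minimum with an established symbol, leaving out provisional names such as Gm and Rik. Nearest to Mfap4 were Sh3tc2 (9.32 in Cre, 10.09 in GFP, distance 0.18), Fat3 (9.36, 10.08, distance 0.21) and Igfbp2 (9.08, 9.96, distance 0.22). Nearest to Eln were Prkg1 (10.76, 11.57, distance 0.098), Rab11fip4 (10.84, 11.55, distance 0.16) and Lsp1 (10.79, 11.36, distance 0.18). None of these 6 is a member of the lists used here, and over 2 libraries such likeness is only a shared pair of levels.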

How the data were processed

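RNA sequencing of 2 libraries was used, 1 labelled Cre and 1 labelled GFP. Their titles name RNA-Seq while their source names speak of a K27ac ChIP sample; the titles and the gene counts were followed, and both fields give the same Cre and GFP labels. Libraries were made with the TruSeq v2 mRNA kit from TRIzol extracts, per the labels' protocols. Tools listed in the submitters' processing notes are HTSeq, TopHat2 2.0.6 and bcl2fastq 1.8.4, with build mm10. For the annotation, strand setting and transform, nothing is stated in those sources. The authors deposited log2 normalized counts per library with their mean and difference, and that difference is the GFP value less the Cre value in 13138 of 13138 rows (tolerance 1e-06). Here the sign is the opposite. A regularized log is inferred from the heading rLogFC and the spread. Folds and linear normalized counts given here are those log2 values converted back, so any shrinkage carries over to them.

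Members were matched by symbol. Genes with a mean of at least 50 were compared and counted by size at 2-fold and 1.5-fold in Python 3.11.15 with pandas 2.3.3. The counting was tested on simulated data. Genes named are all members, genes of the related lists past 1.5-fold, and the highest and lowest of each related list. Also named are the 3 genes with an established symbol nearest to each of 2 members. Others (cell type markers, Loxl1, Mmp12, Mapk7 and those in the closing section) were chosen for their role or position after values were seen. Members and lists were chosen with earlier results of these data known. Lengths and coordinates come from GENCODE M21 (GRCm38). Other minimums, thresholds, scalings, averages and lengths were tried.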

Additional observations from a re-analysis of the deposited data

How the results depend on the processing

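With 1 library per group, neither leaving out a replicate nor a test was possible, and depth limits cannot be given. No paired analysis was possible because there is a single library on each side. The count of members at least 2-fold lower was 1; it was 2 at 1.5-fold and 0 when libraries were scaled to equal totals, with or without the 2 highest genes, since Mfap4 moved to -0.997 and -0.990. The median over members, -0.31, moved to -0.20 at a minimum 10 times higher, which leaves 8 members, and was -0.25 as a mean. At 1.5-fold the related lists gave 1 lower gene in place of 0 and 3 higher in place of 1. All 30 rescaled member differences kept their sign, with shifts of at most 0.015. Of 20 levels per kilobase, 18 stayed within 1.5 times under the other length, and both of Eln did not. The alternatives for raw counts (TMM, size factors) and for pseudocounts were not run, since the values are logs.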

Other observations

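Genes beside the members on the chromosome were set against them. For each member, the nearest compared gene on each side by start position in the annotation was taken, which gave 20 genes. Their median difference was 0.0075 and they ranged from -0.56 to 0.22. Of the 20, 0 reached 1.5-fold in either direction, beside 3.2% of all genes compared, and a count of 0 among 20 is near that share. Mfap4, at -1.005, lies between Aldh3a2 (10.22 in Cre, 10.21 in GFP), 218 kilobases away, and the overlapping Mapk7 (9.53 and 9.52), both level. Eln, at -0.82, lies between Limk1, at 0.06 and 14.0 kilobases away, and Abhd11, at 0.16 and 262 kilobases away. The lowest neighbour was Slc27a6, a fatty acid transporter gene 346 kilobases from Fbn2. Slc27a6 stood at 7.81 in Cre and 8.36 in GFP, a difference of -0.56 beside the -0.38 of Fbn2. On the other side of Fbn2, Slc12a2 differed by -0.09. Emilin1 and its neighbour Khk, which starts 0.15 kilobases after it, both lay slightly above 0, at 0.25 and 0.22. The gap between them is short, and whether reads past the end of Emilin1 were counted for Khk was not tested.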
